A study of Rattus norvegicus with 10 samples.

Results

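The mitochondrial respiratory chain and ATP synthase were represented on the array by 55 genes, measured by 101 probe sets, out of 4736 genes and 8740 probe sets tested. Members were chosen by name alone: a gene counted when the single symbol that the array's annotation gives it begins with Nduf, Uqcr, Atp5, Cox4, Cox5, Cox6, Cox7 or Cox8, or is Sdha, Sdhb, Sdhc, Sdhd, Cyc1 or Cycs. This gave 27 genes for complex I, 1 (Sdha) for complex II, 4 for complex III, 13 for complex IV and 10 for complex V. Another 7 probe sets carry several symbols of which at least 1 fits the rule and were not used, and 0 genes were found for cytochrome c, the soluble carrier between complexes III and IV. Some members are not subunits in the strict sense, or are placed in a complex by name only. Ndufaf3 is a complex I assembly factor. Ndufa4 and its paralogue Ndufa4l2 were counted with complex I by their names alone. Cox7a2l helps to join complexes into larger assemblies, Atp5if1 is the inhibitor of ATP synthase, and Cox6c-ps1 is annotated as a pseudogene of Cox6c.

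The cells were microglia, the macrophages resident in the brain, grown from neonatal rat brain with the tissue of 1 brain per flask for 15 days in medium holding 15% fetal calf serum, then plated at 100000 cells per dish. Control dishes received fresh medium alone and the others fresh medium with 100 U/ml of interferon gamma (IFN-gamma) for 16 hours; no strain or genotype is given. Controls came from 5 independent cultures (numbers 1, 2, 3, 5 and 6). IFN-gamma cultures numbered 3, and culture 1 was hybridised to 3 arrays (1a, 1b and 1c) that were averaged into 1 value, so each comparison is of 5 against 3 cultures.

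The respiratory chain moves electrons from NADH (complex I) and succinate (complex II) through complex III and cytochrome c to complex IV, which reduces oxygen. Complexes I, III and IV pump protons across the inner mitochondrial membrane, and complex V uses that gradient to make ATP. Macrophages and microglia are known to shift between this oxidative route and glycolysis when they are activated. Only nuclear genes of the chain were found among the members. The mitochondrial genome encodes further core subunits, and 0 genes with its prefix were found among the genes tested.

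Levels are given as quantile normalised log2(signal + 16). On this scale a signal of 0 is 4, a difference of 1 between groups stands for a 2-fold change in signal plus 16, and differences of dim genes are understated. Levels of different probe sets are not comparable with each other, so complexes are compared only by the difference between groups. The arrays were scaled because their median deposited signals differed, with 7.40 for the dimmest (control culture 3) and 23.7 for the brightest (array 1b). Control cultures averaged 15.3 ± 5.50 (SD, n = 5) and IFN-gamma cultures 17.9 ± 2.77 (SD, n = 3) on that measure (exact two-sided permutation p = 0.518). The precision is limited by the number of arrays. In RNA from a whole culture, fewer cells of a type and less RNA per cell cannot be told apart.

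No gene of the respiratory chain or ATP synthase passed the threshold after IFN-gamma. In limma's test, 0 of 55 members were higher and 0 lower at an adjusted p under 0.05, where 0.887% and 0.697% of all 4736 genes were (42 higher and 33 lower). At an unadjusted p under 0.05, 6 members were higher and 0 lower, against backgrounds of 5.85% and 5.26%. The 6 were Atp5f1b and Atp5pb of complex V, Cyc1 of complex III and Ndufs7, Ndufb9 and Ndufb10 of complex I. Small positive differences were common: 43 of 55 members (78.2%) had a log2 fold change above 0, against 47.1% of all genes. The median was 0.19 over the members and -0.02 over all genes. These members share cultures and arrays and are not independent of one another, so the count is a description.

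**Figure D1:**
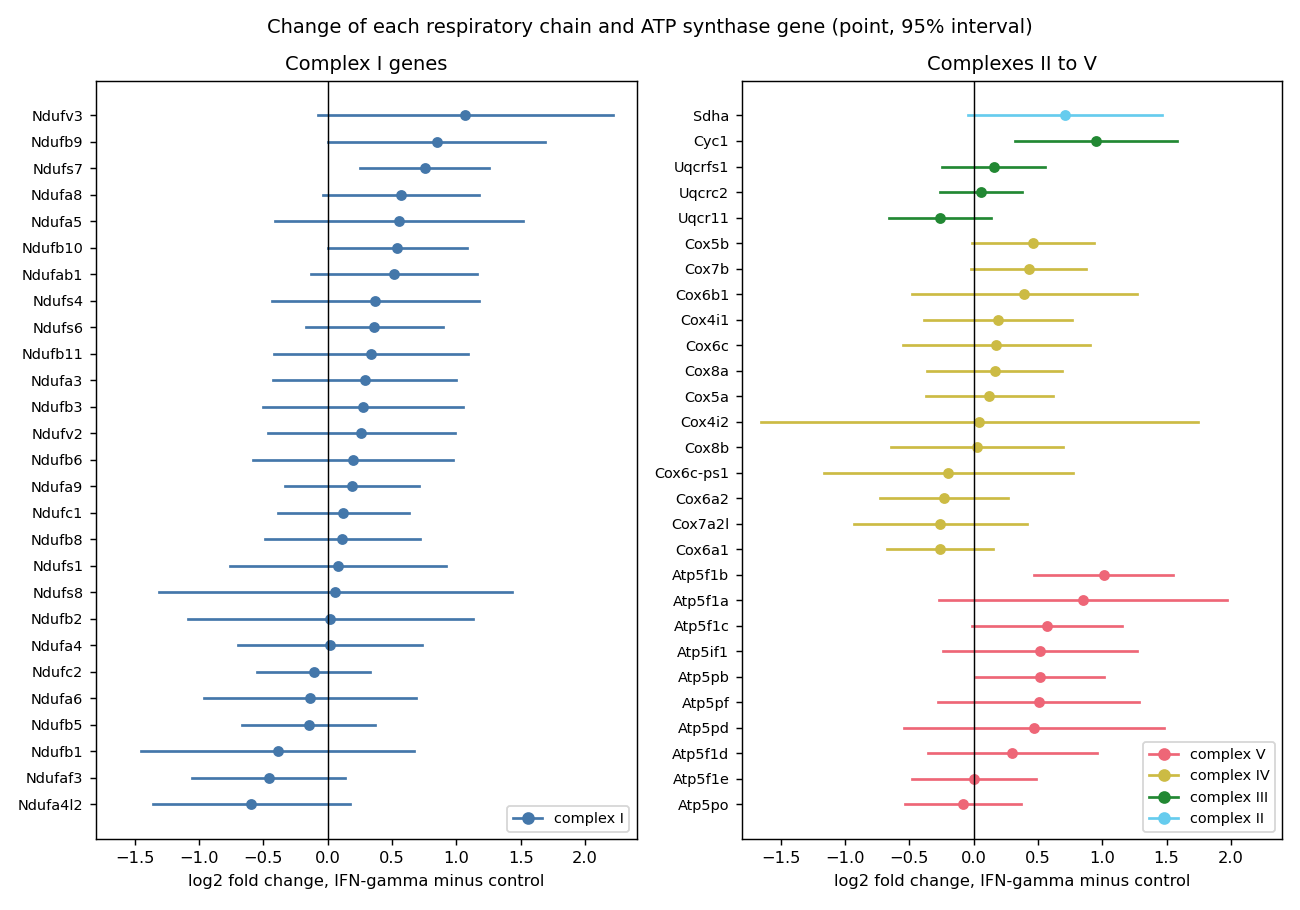
Log2 fold change (IFN-gamma minus control, horizontal axis) of each of the 55 member genes by its brightest probe set, with complex I on the left and complexes II to V on the right. Points are estimates and lines are 95% intervals from limma, not adjusted for the number of genes; 6 intervals lie wholly above 0 and 0 wholly below.

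The precision allows moderate changes to have been missed. The standard error of a member's log2 fold change had a median of 0.29 and ran from 0.14 (Uqcrc2) to 0.75 (Cox4i2). For 28 of 55 members the 95% interval lay within 2-fold in either direction, as it did for 66.1% of all genes. For the other members a 2-fold difference lay inside the interval, or at its edge.

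In 4 members the 3 IFN-gamma cultures lay above all 5 controls, and in 0 members below them. The backgrounds are 4.16% of all genes above and 3.65% below. The clearest was Atp5f1b, the catalytic beta subunit of ATP synthase. Its levels were 8.09, 7.32, 7.78, 7.27 and 7.56 in control cultures 1, 2, 3, 5 and 6, and 8.42, 8.997 and 8.43 in IFN-gamma cultures 1, 2 and 3. The lowest IFN-gamma culture was thus above the highest control. The log2 fold change was 1.01 ± 0.24 (SE), with a 95% interval from 0.47 to 1.55 and an adjusted p of 0.0974, the smallest of any member. The 3 arrays of IFN-gamma culture 1 lay close together, at 8.47, 8.45 and 8.34.

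Cyc1 encodes cytochrome c1, the heme protein of complex III that hands electrons to cytochrome c. It read 5.99, 5.43, 4.74, 5.87 and 5.78 in the controls and 6.56, 6.46 and 6.51 with IFN-gamma (log2 fold change 0.95 ± 0.28 SE, adjusted p = 0.192). Ndufs7, an iron-sulphur core subunit of complex I, read 6.06, 5.98, 5.53, 5.40 and 6.28 in the controls and 6.55, 6.59 and 6.67 with IFN-gamma (log2 fold change 0.75 ± 0.22 SE, adjusted p = 0.197). Ndufb10, an accessory subunit of the membrane arm of complex I, read 5.86, 5.54, 4.92, 5.34 and 5.94 in the controls and 6.01, 6.12 and 6.05 with IFN-gamma (log2 fold change 0.54 ± 0.24 SE, adjusted p = 0.475). In these genes the IFN-gamma cultures lay close together while the controls were spread. The 3 arrays of IFN-gamma culture 1 differed more than the cultures did. They read 6.29, 7.00 and 6.40 for Cyc1, and 5.50, 6.12 and 6.41 for Ndufb10. Array 1a alone would place Ndufb10 among the controls.

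**Figure D2:**
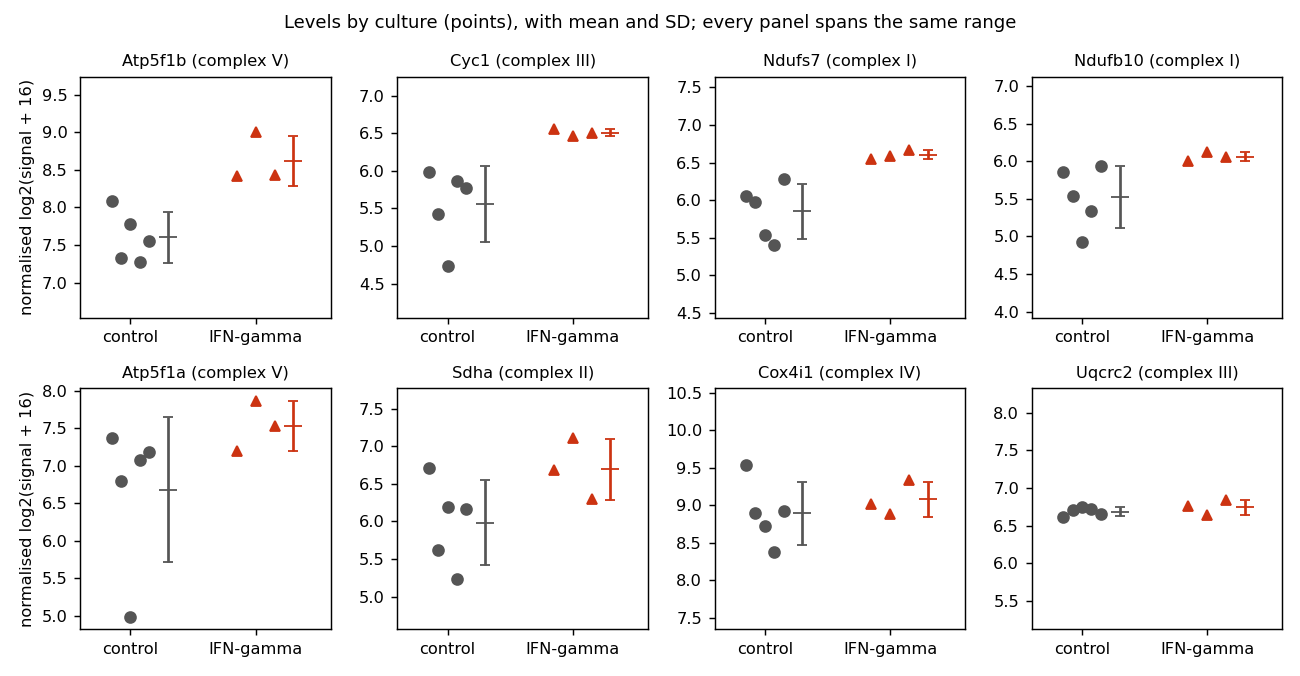
Normalised log2(signal + 16) (vertical axis) in each control culture (circles) and IFN-gamma culture (triangles) for 8 members, with the group mean and SD beside the points; every panel spans the same range. The groups are apart in Atp5f1b, Cyc1, Ndufs7 and Ndufb10 and overlap in Atp5f1a, Sdha, Cox4i1 and Uqcrc2; Atp5f1a has 1 control at 4.99.

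The promoter windows of 46 of the 55 members were matched by gene identifier in the RefSeq table for assembly GRCr8. Each runs from 250 bases before to 50 after the annotated start of the gene. They were searched on both strands for the cores of 3 factors known to act on nuclear genes of the chain: GCATGCG (NRF1), CCGGAAG (ETS family, which includes GABPA) and AAGATGG (YY1). The NRF1 core was in 4 of the 46 windows (8.70%), in 4.21% of the 3871 windows of genes measured on the array and in 3.54% of the windows of all 27457 genes. For the ETS core these shares were 9 windows (19.6%), 12.3% and 9.22%, and for the YY1 core 13 windows (28.3%), 7.34% and 7.30%. In 0 of the 46 did matches to different motifs overlap. A match is a description of letters and says nothing of binding. The windows below belong to 3 of the 4 members whose groups did not overlap (Ndufs7, Ndufb10 and Atp5f1b); no window was matched for the other, Cyc1. They stand beside Atp5pf, whose groups overlapped, and the only complex V gene among the 2 members that hold all 3 motifs. Letters are 5′ to 3′ on the strand of the gene, with motif matches in capitals.
Atp5f1b, chr7:1099808-1100107, plus strand: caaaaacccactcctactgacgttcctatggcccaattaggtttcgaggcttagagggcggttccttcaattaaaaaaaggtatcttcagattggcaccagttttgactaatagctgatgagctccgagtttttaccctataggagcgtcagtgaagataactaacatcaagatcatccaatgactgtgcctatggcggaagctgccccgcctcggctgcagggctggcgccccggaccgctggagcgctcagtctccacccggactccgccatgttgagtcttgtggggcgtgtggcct
Ndufs7, chr7:10110449-10110748, minus strand: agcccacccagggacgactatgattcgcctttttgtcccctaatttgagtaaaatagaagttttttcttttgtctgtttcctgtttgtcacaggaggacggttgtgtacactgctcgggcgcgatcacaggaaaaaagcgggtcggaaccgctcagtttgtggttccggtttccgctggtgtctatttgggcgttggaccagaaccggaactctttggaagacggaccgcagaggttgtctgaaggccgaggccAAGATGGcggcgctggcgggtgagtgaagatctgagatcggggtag
Ndufb10, chr10:14255917-14256216, minus strand: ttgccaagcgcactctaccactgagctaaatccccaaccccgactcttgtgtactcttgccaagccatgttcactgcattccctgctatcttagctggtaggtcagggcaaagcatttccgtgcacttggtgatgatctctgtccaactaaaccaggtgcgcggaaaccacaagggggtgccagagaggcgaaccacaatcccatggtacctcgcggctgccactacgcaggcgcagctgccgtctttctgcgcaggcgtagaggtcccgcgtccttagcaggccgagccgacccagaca
Atp5pf, chr11:37375052-37375351, minus strand: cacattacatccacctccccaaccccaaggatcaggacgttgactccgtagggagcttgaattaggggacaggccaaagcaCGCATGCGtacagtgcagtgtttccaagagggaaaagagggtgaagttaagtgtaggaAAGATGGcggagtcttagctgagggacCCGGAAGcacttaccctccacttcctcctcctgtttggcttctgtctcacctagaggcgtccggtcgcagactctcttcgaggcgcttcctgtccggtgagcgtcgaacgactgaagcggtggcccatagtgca
The Ndufs7 window holds a YY1 core. Those of Atp5f1b and Ndufb10 hold none of the 3 cores within these 300 bases.

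Complex I, the NADH dehydrogenase, had 27 genes with log2 fold changes from -0.59 to 1.07 and a median of 0.20. Of these 21 were above 0. Its 4 measured core subunits had differences of 0.75 (Ndufs7), 0.26 (Ndufv2, adjusted p = 0.884), 0.08 (Ndufs1, adjusted p = 0.984) and 0.06 (Ndufs8, adjusted p = 0.993). The last is poorly measured, with controls from 4.70 to 7.13 and a 95% interval from -1.31 to 1.43. The highest member was Ndufv3, an accessory subunit beside the NADH site. It read 6.85, 5.07, 5.41, 5.11 and 7.17 in the controls and 6.90, 6.82 and 7.25 with IFN-gamma (log2 fold change 1.07 ± 0.51 SE, adjusted p = 0.514). Control cultures 1 and 6 already stood at the IFN-gamma level, and cultures 2, 3 and 5 stood well below it. Ndufb9, another accessory subunit, showed the same kind of spread, with 7.09, 5.37, 5.34, 6.08 and 6.26 in the controls against 6.96, 6.73 and 6.94 (adjusted p = 0.470).

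The lowest of the genes counted with complex I by name were Ndufa4l2 and Ndufaf3. Ndufa4l2, a paralogue of Ndufa4 that is known to be induced by hypoxia, read 6.04, 6.42, 6.45, 5.78 and 6.16 in the controls and 6.11, 4.62 and 6.0 with IFN-gamma. Its log2 fold change of -0.59 (adjusted p = 0.636) was carried by IFN-gamma culture 2. Its 4 other probe sets ran from -0.57 to 0.08. Ndufaf3 read 5.01, 5.61, 6.11, 5.07 and 5.77 in the controls and 5.0, 5.04 and 5.13 with IFN-gamma, a log2 fold change of -0.46 (adjusted p = 0.638). Its dimmer probe sets lay at 0.03 and 0.88, and in the last of these the IFN-gamma cultures lay above all controls (adjusted p = 0.148).

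Complex II was represented by Sdha alone, the flavoprotein that oxidises succinate. It read 6.71, 5.62, 6.19, 5.23 and 6.16 in the controls and 6.68, 7.10 and 6.30 with IFN-gamma (log2 fold change 0.71 ± 0.33 SE, adjusted p = 0.505). The groups overlapped, since control culture 1 stood above IFN-gamma cultures 1 and 3.

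In complex III, the cytochrome bc1 complex, only Cyc1 showed separate groups. Uqcrfs1, the Rieske iron-sulphur protein, read 7.02, 6.93, 6.70, 6.50 and 6.97 in the controls and 6.92, 6.90 and 7.13 with IFN-gamma (log2 fold change 0.16, adjusted p = 0.875). Uqcrc2, a core structural subunit, was the most evenly measured member. It read 6.61, 6.71, 6.74, 6.72 and 6.65 in the controls and 6.76, 6.64 and 6.84 with IFN-gamma. Its log2 fold change was 0.06 with a 95% interval from -0.26 to 0.38 (adjusted p = 0.960). Uqcr11, a small subunit, read 8.63, 9.05, 9.01, 8.83 and 8.55 in the controls and 8.52, 8.46 and 8.66 with IFN-gamma (log2 fold change -0.26, adjusted p = 0.723). Its other probe set lay at 0.30.

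Complex IV, cytochrome c oxidase, had 13 genes between -0.26 and 0.46, with a median of 0.12 and 9 above 0. The highest were Cox5b and Cox7b, small nuclear-encoded subunits. Cox5b read 7.24, 6.70, 6.48, 6.64 and 7.13 in the controls and 7.2, 7.28 and 7.42 with IFN-gamma (log2 fold change 0.46, adjusted p = 0.487). A second probe set of Cox5b lay at 0.86, with the IFN-gamma cultures above all controls (adjusted p = 0.234). Cox7b read 6.50, 6.04, 6.18, 5.77 and 6.24 in the controls and 6.34, 6.71 and 6.67 with IFN-gamma (log2 fold change 0.43, adjusted p = 0.498). At the other end, Cox6a1 read 8.96, 9.16, 9.40, 9.06 and 9.30 in the controls and 8.99, 8.63 and 9.12 with IFN-gamma (log2 fold change -0.26, adjusted p = 0.736). Its other probe sets lay at -0.52, with the IFN-gamma cultures below all controls (adjusted p = 0.329), and at 0.31. Cox7a2l also lay at -0.26 (adjusted p = 0.878), with 7.93, 7.61, 6.65, 7.68 and 7.73 in the controls against 7.50, 7.42 and 6.86. The 4 lowest members of the complex had overlapping groups, and their sign is not settled, as the effect of scaling below shows for Cox6a1 and Cox7a2l.

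Several complex IV subunits exist as a common form and a form known from particular tissues. Of the common forms, Cox4i1 read 9.53, 8.90, 8.73, 8.38 and 8.92 in the controls and 9.01, 8.89 and 9.34 with IFN-gamma (log2 fold change 0.19, adjusted p = 0.899). Cox8a read 9.80, 9.76, 9.13, 9.73 and 10.1 against 10.1, 9.80 and 9.66 (0.16, adjusted p = 0.911). Cox6b1 read 8.91, 8.06, 7.10, 8.45 and 8.84 against 8.45, 8.62 and 8.93 (0.39, adjusted p = 0.846). In each the IFN-gamma cultures lay inside or across the control range.

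Of the tissue forms, Cox8b (heart and skeletal muscle) was dim, at 4.39, 4.59, 5.15, 5.57 and 4.36 in the controls and 4.86, 5.06 and 4.61 with IFN-gamma (log2 fold change 0.03, adjusted p = 0.995). Cox6a2, also a muscle form, read 6.30, 7.13, 7.06, 6.78 and 6.76 against 6.81, 6.40 and 6.50 (-0.23, adjusted p = 0.846). Its 2 other probe sets lay at 0.01 and 0.15. Their control means were 4.87 and 4.24, the latter near the floor. Cox4i2, a form known from lung and from low oxygen, had the widest spread of any member. It read 5.41, 9.18, 8.61, 7.24 and 6.79 in the controls and 7.17, 8.1 and 7.204 with IFN-gamma (log2 fold change 0.04, 95% interval -1.65 to 1.74, adjusted p = 0.997). Its controls alone spanned more than 3 units, and control culture 1, the highest control for many other members, was the lowest here.

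Complex V, the ATP synthase, had the largest median difference among the complexes with more than 1 gene. Its 10 genes lay between -0.08 and 1.01, with a median of 0.51 and 9 above 0. The difference between complexes was not tested. The F1 head, where ATP is made, had differences of 1.01 (Atp5f1b), 0.85 (Atp5f1a, alpha), 0.57 (Atp5f1c, gamma), 0.30 (Atp5f1d, delta) and 0.01 (Atp5f1e, epsilon). The alpha subunit gene read 7.36, 6.79, 4.99, 7.08 and 7.18 in the controls and 7.19, 7.86 and 7.53 with IFN-gamma (adjusted p = 0.648). Without control culture 3, its lowest control, the log2 fold change was 0.43 (adjusted p = 0.537). Atp5f1c read 7.31, 6.14, 7.05, 6.64 and 6.74 against 7.19, 7.34 and 7.52 (adjusted p = 0.485). Atp5f1e read 8.27, 8.01, 7.58, 8.18 and 8.28 against 7.77, 8.18 and 8.25 (adjusted p = 0.998). Differences between the subunits of the head were not tested. The interval of Atp5f1a, from -0.27 to 1.97, is the widest of the head. Those of Atp5f1c and Atp5f1d run from -0.01 to 1.15 and from -0.36 to 0.96. The intervals of Atp5f1b, from 0.47 to 1.55, and Atp5f1e, from -0.47 to 0.49, meet only at their ends. All 5 intervals overlap one another. Each interval describes 1 gene against its own controls, so no difference between subunits is read from them.

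The peripheral stalk, which holds the head still against the membrane rotor, had differences of 0.51 (Atp5pb), 0.51 (Atp5pf), 0.47 (Atp5pd) and -0.08 (Atp5po). Atp5pb read 6.15, 6.26, 5.80, 5.70 and 6.02 in the controls and 6.82, 6.61 and 6.07 with IFN-gamma (adjusted p = 0.445). Its IFN-gamma culture 3 lay inside the control range. Atp5po read 7.71, 8.16, 8.38, 8.30 and 8.40 against 8.22, 7.93 and 8.17 (adjusted p = 0.960), while its other probe set lay at 0.56. Atp5if1, the inhibitor that binds the head when the gradient collapses, read 8.06, 6.74, 6.52, 7.14 and 7.54 against 7.65, 7.97 and 7.54 (log2 fold change 0.52, adjusted p = 0.705), and its 3 other probe sets lay between -0.10 and 0.22.

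Set side by side by culture, none of the complexes with more than 1 gene separated the groups. For each gene the control mean was subtracted, and the median over the genes of a complex was taken in each culture. In complex V these medians were 0.49, -0.05, -0.34, -0.10 and 0.22 in control cultures 1, 2, 3, 5 and 6, and 0.43, 0.57 and 0.33 in IFN-gamma cultures 1, 2 and 3. Control culture 1 thus stood above 2 of the 3 IFN-gamma cultures, and the other controls stood below all of them. In complex I the controls ran from -0.31 to 0.41 and the IFN-gamma cultures from 0.11 to 0.26. In complex III they ran from -0.03 to 0.06 and from 0.01 to 0.23. In complex IV they ran from -0.36 to 0.24 and from 0.02 to 0.33. Over all 55 members the controls were at 0.38, -0.13, -0.19, -0.14 and 0.23 and the IFN-gamma cultures at 0.11, 0.25 and 0.30.

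**Figure D3:**
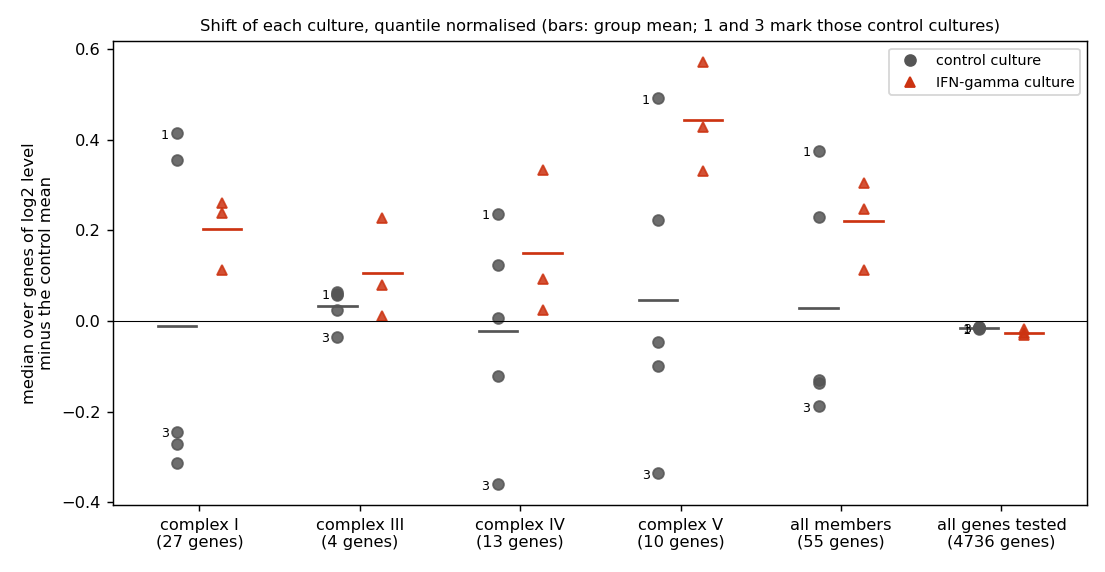
Median over the genes of each complex of the log2 level minus that gene's control mean (vertical axis), in each control culture (circles) and IFN-gamma culture (triangles) after quantile normalisation, with bars at the group means. Control culture 1 lies at 0.49 in complex V and 0.41 in complex I, among or above the IFN-gamma cultures, and over all 4736 genes every culture lies near 0.

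Leaving out control culture 1 or 6, the cultures with the highest member levels among the controls, raised the members' median log2 fold change from 0.19 to 0.35 and 0.34. Such a rise follows from leaving out high controls. Without culture 1, 16 members were higher at an unadjusted p under 0.05, against a background of 7.66% in the same fit. The count of 6 members at that threshold was 3 without control culture 5 (background 5.41%) and 3 without IFN-gamma culture 2 (background 4.27%). Without control culture 1, its highest control (8.09), Atp5f1b passed (log2 fold change 1.13, adjusted p = 0.0474). It was the only member to do so, against a background of 1.16%. Atp5f1b was also the only member called higher in 2 other fits. In one, all 10 arrays were kept with the culture as a random block (adjusted p = 0.0347, background 1.48%). That fit counts arrays, not cultures, as its observations, with 1 correlation allowed within cultures. Only IFN-gamma culture 1 had more than 1 array. In the other, the variance was moderated along an intensity trend (adjusted p = 0.0412, background 1.22%). In the remaining 19 of 22 other settings 0 members were called.

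The choice of scaling moved the size of the differences, but 0 members passed under any of the 4 scalings. With array medians subtracted the median difference was 0.39 in complex I, 0.91 for Sdha, 0.41 in complex III, 0.44 in complex IV and 0.65 in complex V. With no scaling it was 0.52, 1.03, 0.54, 0.56 and 0.77, and with signals scaled to a common trimmed mean 0.25, 0.70, 0.16, 0.13 and 0.47. The median over all 4736 genes was -0.01, 0.11 and -0.08 in the same order. Relative to it, complex V lay 0.66, 0.66 and 0.55 higher, and 0.53 higher with quantile normalisation. The sets are not alike in brightness: all 55 members but 3179 of 4736 genes had a signal above 16 in at least 3 cultures. With no scaling control culture 3 lay at -0.998 over the members and at -0.398 over all genes. Subtracting the median of all genes may thus leave part of the array scale in the members. In each of these 4 scalings complex V had the highest median of the complexes with more than 1 gene. With array medians subtracted 13 members were higher at an unadjusted p under 0.05, against a background of 7.22%. The direction of all calls in the series moved with the scaling as well. Higher calls were 56% of called genes with quantile normalisation, 76.1% with array medians, 68.2% with the trimmed mean and 100% (21 of 21) with no scaling.

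Scaling also decided the sign of some members. Uqcr11, Cox6a1 and Atp5po, each slightly lower with quantile normalisation, were slightly higher under the other 3 scalings. With no scaling their log2 fold changes were 0.47, 0.56 and 0.58. Cox7a2l and Cox6a2 turned positive with array medians and with no scaling (0.15 and 0.18 with no scaling). Of the 36 named members 12 changed sign in some setting. Ndufa4l2 stayed negative wherever it was measured, and all the other named members stayed positive. Atp5f1b, Atp5f1a, Cyc1, Ndufs7, Ndufb10 and Sdha were thus positive throughout, as were most named members.

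**Figure D4:**
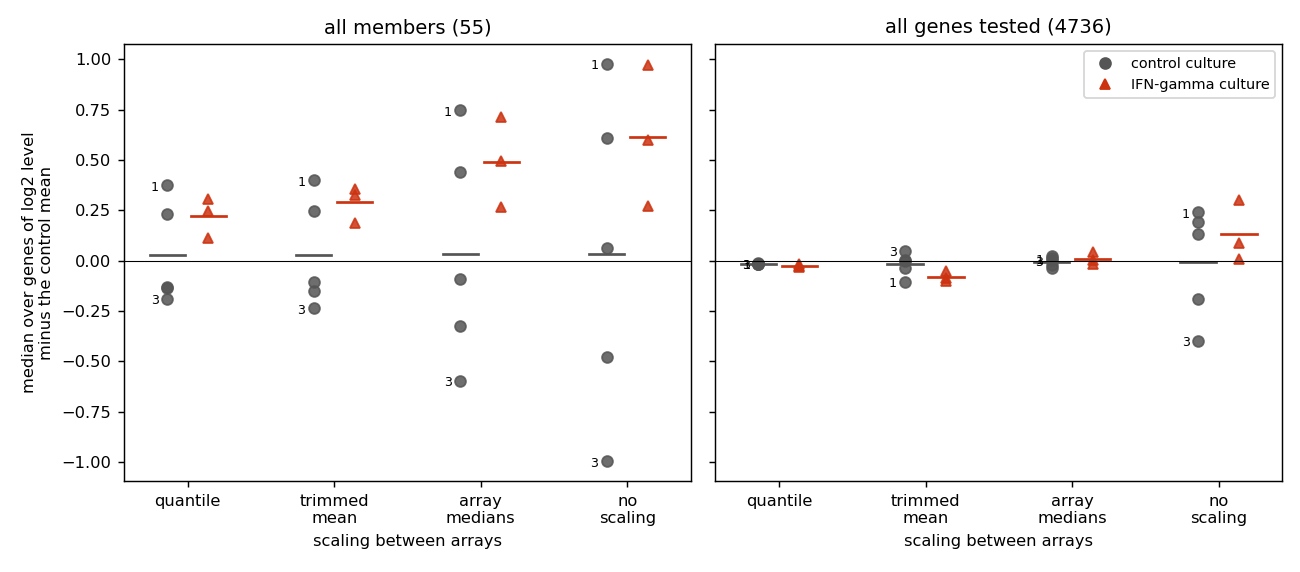
Median of the log2 level minus the control mean (vertical axis) in each control culture (circles) and IFN-gamma culture (triangles) under 4 scalings between arrays, for the 55 members (left) and all 4736 genes (right), with bars at the group means. The spread of the members' controls widens from quantile normalisation (-0.19 to 0.38) to no scaling (-0.998 to 0.978). Over the members (left) control culture 1 stays above every IFN-gamma culture in each scaling, which is not so over all genes (right).

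Probe sets of the same gene often disagreed. Of 28 members with several probe sets, 10 had all of them on 1 side of 0 and 18 had mixed signs. Of the 101 member probe sets 0 were called higher or lower at an adjusted p under 0.05, against 0.927% and 0.606% of all 8740. At an unadjusted p under 0.05, 9 were higher and 2 lower, against backgrounds of 5.74% and 4.76%. The IFN-gamma cultures lay above all controls in 6 probe sets and below them in 1, against 4.28% and 3.4% of all probe sets. The 2 lower ones belong to Ndufb8 and Cox6a1. For Ndufb8, an accessory subunit of the membrane arm of complex I, that probe set lay at -0.73 and the brightest at 0.11.

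Other genes of mitochondrial energy metabolism were taken from 5 lists by role. Of 8 measured genes of electron entry and ubiquinone synthesis 0 passed, with a median log2 fold change of 0.06. The largest differences were in Dhodh, which feeds electrons from pyrimidine synthesis (0.48, adjusted p = 0.235), and Chdh, choline dehydrogenase (-0.45, adjusted p = 0.766). Of 6 assembly factors 0 passed, with a median of 0.44. The largest were Uqcc2 (0.89, adjusted p = 0.410) and Higd1a (0.55, adjusted p = 0.485). Of 11 regulators of biogenesis and mitochondrial transcription 0 passed, with a median of -0.0026. The largest were Ppard (-0.72, adjusted p = 0.624) and Hif1a, the oxygen-sensing factor (0.58, adjusted p = 0.684). Of 16 genes of protein import, chaperones and membrane structure 0 passed, with a median of 0.02. Phb2, a prohibitin, had 1.22 (adjusted p = 0.283) and Pmpcb, a presequence protease subunit, 0.94 (adjusted p = 0.355).

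Among 18 carriers and channels of the mitochondrial membranes 1 rose and 0 fell, with a median of 0.21. Tspo, the outer membrane translocator protein that is used as an imaging marker of activated microglia, rose 2.68-fold. It read 5.94, 5.46, 6.17, 6.17 and 5.42 in the controls and 7.56, 6.96 and 7.24 with IFN-gamma (log2 fold change 1.42 ± 0.25 SE, adjusted p = 0.0224). The groups did not overlap. The call held in 14 of 22 other settings. It was lost without control culture 2 (adjusted p = 0.0511) or 6 (0.0504) and without IFN-gamma culture 1 (0.126), 2 (0.0541) or 3 (0.115). It was also lost with no scaling (0.0677), a pseudocount of 1 (0.133) and the replicate block (0.157), and its log2 fold change ran from 0.94 to 1.82 over the 22.

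The cultures expressed macrophage markers. Of 10 measured microglia and macrophage markers 3 rose (Lyz2, C1qb and C1qc) and 0 fell, and their mean level ran from 6.83 to 7.03 in the controls and from 7.28 to 7.37 with IFN-gamma. The call held in 19 of 22 other settings for Lyz2, 14 of 22 for C1qb and 11 of 21 for C1qc. C1qb lost it without control culture 2 or 6 or IFN-gamma culture 2 or 3, and C1qc without control culture 1, 2, 5 or 6 or any 1 IFN-gamma culture (adjusted p from 0.0507 to 0.203 over these fits). Lyz2 stood at 10.8, C1qb at 8.77 and Cd14 at 8.63 in the controls, while Csf1r (4.74) and Cx3cr1 (5.19) were dim. In the controls 5 of these 10 markers had a mean above 6, and Itgam (4.985), P2ry12 (5.52) and Ptprc (5.60) also lay below it. Of 10 astrocyte markers 0 rose and 2 fell (Glul and Vim, both also made by other cells). Their mean level ran from 5.45 to 5.90 in the controls and from 5.22 to 5.33 with IFN-gamma, with Gja1 (4.11) near the floor. The 3 astrocyte markers with a control mean above 6 were Glul (9.075), Vim (7.82) and Slc1a3 (6.17). With no scaling Lyz2 (adjusted p = 0.431), C1qb (0.434), C1qc (0.103), Glul (0.729) and Vim (0.937) all lost their calls. The same genes lost them with a pseudocount of 1 and with the replicate block. Glul and Vim also lost theirs with array medians subtracted, and Vim with the trimmed mean (adjusted p = 0.151). The calls of Glul and Vim held in 17 and 11 of 22 other settings. Vim was not called without control culture 2 or 6 or IFN-gamma culture 2 or 3 (adjusted p from 0.0565 to 0.1499). Of 7 oligodendrocyte, 8 neuronal, 9 fibroblast and mural and 4 endothelial markers 0 passed in either direction. The mean levels of these lists in the controls ran from 4.96 to 5.65, 5.02 to 5.63, 5.18 to 5.41 and 5.07 to 5.42. With IFN-gamma they ran from 4.83 to 5.14, 4.96 to 5.37, 4.96 to 5.19 and 5.04 to 5.60. The part of these levels in the members' values was not tested.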

How the data were processed

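Biotin-labelled RNA from 5 control and 3 IFN-gamma cultures was hybridised to 10 Affymetrix rat arrays, per the labels. The deposited table holds 1 linear signal intensity per probe set and array. MAS5 and GCRMA appear, without versions, per the submitters' processing notes. The sources used here do not say which of the pair produced the table. The array medians differ, so no common scaling was present.

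Of 8799 probe sets, 59 array controls were left out. Symbols came from the platform annotation, where 7006 of the 8740 tested probe sets have 1 symbol. A gene was represented by the probe set with the highest mean over the 8 cultures. Intensities were transformed to log2(signal + 16) and quantile normalised, the 3 technical arrays were averaged, and groups were compared with limma 3.58.1 in R 4.3.3 (lmFit, eBayes, two-sided, no block), with p-values adjusted by Benjamini-Hochberg across all 8740 and called under 0.05. The fit was tested on simulated data. Tables and plots were made in Python 3.11.15. Members, lists and tests were chosen with earlier results of these data known. Named members were the 2 highest and 2 lowest of each complex (all where it has 4 or fewer), any past the threshold under some scaling, and the tissue isoform pairs. The remaining complex V genes, the complex I core subunits, members at an unadjusted p under 0.05 and those in the closing section were named after their values were seen. Lists name their called genes, or the 2 largest differences. The submitters call the control cultures independent, and 1 brain per flask is stated. Every culture but IFN-gamma culture 1 had 1 array. The p-values thus measure the spread between cultures and between arrays together. Alternatives covered scaling, pseudocount, dim probe sets, technical arrays, the choice of probe set, specificity, variance moderation, culture blocks and each culture left out.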

Additional observations from a re-analysis of the deposited data

Results flagged for a closer look

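In 5 of 55 members 1 control culture stood apart from the other 4 by more than Dixon's 95% limit (a gap over 0.71 of the group's range). Chance gives such a flag in about 1 of 20 groups of independent, normally distributed values. The members share the same control arrays, so that rate is no background for this count. The share of all genes with such a flag is not given here, so the flags are not read as a trait of the members. All 5 were low values. Control culture 3, the array with the lowest median signal (7.40), was lowest in 3 of them: Atp5pd, a stalk subunit of ATP synthase (4.5, control median 6.38), Atp5f1a (4.99, control median 7.08) and Cox7a2l (6.65, control median 7.68). Control culture 2 was lowest in the other two, both small subunits of complex I: Ndufa3 (5.62, control median 6.87) and Ndufb3 (5.73, control median 7.12). The remaining 4 controls overlapped the IFN-gamma cultures in Atp5pd, Atp5f1a, Ndufa3 and Ndufb3. In Cox7a2l they did not: those 4 controls (7.61 to 7.93) all lay above the IFN-gamma cultures (6.86 to 7.50). This holds only with culture 3 set aside, and in the gene's other probe set, with a log2 fold change of 0.15, the same 4 controls (6.25 to 6.86) overlapped the IFN-gamma cultures (6.43 to 6.75).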

How the results depend on the processing

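Results were recomputed under 22 other settings, or 21 for 9 named genes whose probe sets a filter on specificity or dim signal removed. The median difference stayed above 0 for all members and for each complex in all 22. With no scaling between arrays it was 0.591 (all members), 0.515 (complex I), 0.536 (complex III) and 0.561 (complex IV), and with array medians subtracted 0.468 (all members), 0.413 (complex III) and 0.439 (complex IV). Complex III, with 4 genes, also moved to 0.0305 with array 1a alone, 0.23 with array 1b alone, 0.307 without probe sets of reduced specificity and 0.216 with the mean of a gene's probe sets. With 1 culture left out at a time the medians ran from 0.158 to 0.348 (all members), 0.102 to 0.348 (complex I), 0.505 to 0.909 (complex II), 0.0456 to 0.154 (complex III), 0.0197 to 0.178 (complex IV) and 0.38 to 0.648 (complex V), and members called higher from 0 to 1 and lower from 0 to 0. The 1 call, Atp5f1b, came without control culture 1, with the random block and with the intensity trend. The causes were not tested.

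With the culture number as a replicate block 0 members were called and the members' median was 0.302. In that fit 9 genes were higher and 4 lower over the whole table. The labels do not say that a shared number marks a shared brain or day, so the numbers were not taken as pairs. Deviations of same-numbered cultures had r = -0.0266, 0.00383 and -0.0146, and those of other pairs ran from -0.0719 to 0.0956. With so few cultures these values cannot settle whether the cultures were paired.

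Of the 36 named members, 12 changed sign in some setting, none of them called. With no scaling Atp5po was 0.578, Cox6a1 0.561, Cox6a2 0.18, Cox7a2l 0.145 and Uqcr11 0.466, and with array medians 0.455, 0.439, 0.0571, 0.0225 and 0.343. With the trimmed mean Atp5po was 0.161, Cox6a1 0.126, Uqcr11 0.0346, Cox8b -0.073 and Ndufs1 -0.0153. With a pseudocount of 64 Cox4i2 was -0.053, Cox8b -0.00308 and Ndufs8 -0.0286. With array 1a alone Atp5f1e was -0.00582, Atp5po 0.00981 and Cox8b -0.0767; with 1b alone Cox4i2 was -0.0313; with 1c alone Atp5f1e was -0.0226, Cox4i2 -0.0526 and Cox8b -0.0261. With the culture as a random block Atp5f1e was -0.0714, Cox4i2 -0.0391 and Ndufs8 -0.124. Without probe sets of reduced specificity Atp5f1e was -0.00927, Cox6a2 0.147, Cox8a -0.457 and Uqcc2, no member, -0.121. With the replicate block Atp5po was 0.025 and Cox4i2 -0.244. With the mean of a gene's probe sets Atp5f1e was -0.00195, Atp5po 0.241, Cox8a -0.0275, Ndufaf3 0.151 and Uqcr11 0.0178. With 1 culture left out the lowest and highest values were -0.116 and 0.152 for Atp5f1e, -0.203 and 0.00602 for Atp5po, -0.465 and 0.479 for Cox4i2, -0.088 and 0.215 for Cox8b, -0.0391 and 0.347 for Ndufs1 and -0.287 and 0.454 for Ndufs8. The number of arrays and the signal over background limit all of these.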

Other observations

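Control culture 1 was the highest control in 28 of 55 members and culture 6 in 15, while over all genes these cultures were highest in 21% and 15.6%. Control culture 3 was the lowest in 20 members and culture 5 in 16, against 24.8% and 17.5% of all genes. The median SD over the controls was 0.50 in the members and 0.41 over all genes, and over the IFN-gamma cultures 0.24 and 0.25. The controls had the larger SD in 48 of 55 members (87.3%) and in 73.4% of all genes. The groups differ in size, and IFN-gamma culture 1 is a mean of 3 arrays. Those 3 arrays had a median SD of 0.26 in the members, about as large as the spread between the IFN-gamma cultures.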
